A study of Rattus norvegicus with 24 samples.

Results

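The 100 genes described here had their highest mean level in rats exposed to 7 loud noises, while their mean after 3 exposures stayed close to that of rats exposed to 0 or 1. They were chosen from the rostral posterior hypothalamus (rPH) counts of 20 rats, 5 per group. Counts were divided by each library's total and scaled to CPM (counts per 1e6 counted reads), and the group means were put on the log2 scale. Of the 32883 genes counted, 12415 had a mean of at least 5 CPM, and 8662 of these had an RS3 mean within 0.1 log2 units of the midpoint of the C and AS means. The 100 with the largest excess of the RS7 mean over the highest of the other 3 group means were taken, and this excess is called the increment here. Every member therefore rises in RS7 by construction. All its comparisons with RS7, of RS3 with C and AS, and of C with AS are given as descriptions.

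All rats were young adult male Sprague-Dawley rats from Envigo that were placed into sound-attenuating chambers daily for 7 days. The C group heard background fan noise only (0 loud noises), and the AS (acute stress), RS3 and RS7 (repeated stress) groups were exposed to 1, 3 and 7 sessions of loud white noise, the last of them on the final day. Tissue was taken 1 day after the last session, so each value is a single late time point and does not follow a rat through the exposures. The block cut around the mammillothalamic tracts held the rPH region together with tissue next to it, and it mixes neurons, glia and vessels, so that fewer cells of a type and less RNA per cell cannot be told apart. In each group 1 rat took no part in the choice, namely rat 20 of C, 18 of AS, 8 of RS3 and 1 of RS7.

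The rPH is a brain region that has been linked to habituation, the decline of hormonal and autonomic responses when the same stressor is repeated. Lasting change in neurons is commonly tied to the proteins of the presynaptic active zone and postsynaptic scaffold, to kinase cascades that carry signals from the membrane, and to chromatin and transcription factors that set which genes are read. Genes of each of these kinds were among the members.

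The total counts of the 20 rats lay between 8087697 and 16947298. The 10 most abundant genes took 12.4% to 20.3% of them, with C rats 21 and 22 and RS7 rat 4 above the other 17 rats, and 24.9% to 46.3% in the 4 rats left out of the choice. The identifiers were paired with symbols only through the lists of genes that the study had called in these rats. This gave a symbol for 39 members, so the named members are a selection that favours called genes, and the other 61 are described as a group.

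The region just before the start of transcription is shown for 6 members, as RefSeq places it on the GRCr8 build. The first 3 are those whose RS7 rats all lay above all other rats. Each run is the 250 bases before the start, 5′ to 3′ on the gene's strand.
Hdac9, chr6:57052572-57052821, minus strand: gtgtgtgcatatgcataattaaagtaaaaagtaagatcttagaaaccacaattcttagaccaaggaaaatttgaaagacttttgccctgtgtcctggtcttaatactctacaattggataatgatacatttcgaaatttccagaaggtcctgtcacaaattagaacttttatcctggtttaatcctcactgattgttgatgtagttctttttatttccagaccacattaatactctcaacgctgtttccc
Cachd1, chr5:120526974-120527223, plus strand: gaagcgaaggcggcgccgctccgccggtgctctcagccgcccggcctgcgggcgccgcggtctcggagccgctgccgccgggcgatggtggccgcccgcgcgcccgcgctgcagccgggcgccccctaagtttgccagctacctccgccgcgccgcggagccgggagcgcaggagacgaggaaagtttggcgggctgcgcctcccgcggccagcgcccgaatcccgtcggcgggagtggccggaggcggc
Rasal2, chr13:72102724-72102973, minus strand: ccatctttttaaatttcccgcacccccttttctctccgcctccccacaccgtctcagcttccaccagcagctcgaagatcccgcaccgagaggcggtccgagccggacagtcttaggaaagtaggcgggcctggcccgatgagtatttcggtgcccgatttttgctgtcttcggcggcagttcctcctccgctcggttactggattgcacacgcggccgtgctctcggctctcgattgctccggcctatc
The next 3 are the members whose region held the E-box form CACGTG, bound by basic helix-loop-helix factors and printed in capitals. Other forms of the E-box were not searched.
Dpf1, chr1:93733592-93733841, plus strand: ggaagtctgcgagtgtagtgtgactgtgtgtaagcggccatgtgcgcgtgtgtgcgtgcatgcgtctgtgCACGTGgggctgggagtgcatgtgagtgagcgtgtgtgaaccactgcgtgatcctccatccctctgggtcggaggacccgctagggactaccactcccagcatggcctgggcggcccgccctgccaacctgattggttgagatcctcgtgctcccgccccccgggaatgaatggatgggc
Btbd8, chr14:2479203-2479452, minus strand: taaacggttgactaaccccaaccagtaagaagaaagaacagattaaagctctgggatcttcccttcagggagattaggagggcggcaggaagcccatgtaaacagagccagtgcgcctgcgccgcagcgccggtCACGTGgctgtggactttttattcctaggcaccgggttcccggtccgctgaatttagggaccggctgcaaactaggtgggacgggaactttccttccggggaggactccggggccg
Tgfb2, chr13:100792686-100792935, minus strand: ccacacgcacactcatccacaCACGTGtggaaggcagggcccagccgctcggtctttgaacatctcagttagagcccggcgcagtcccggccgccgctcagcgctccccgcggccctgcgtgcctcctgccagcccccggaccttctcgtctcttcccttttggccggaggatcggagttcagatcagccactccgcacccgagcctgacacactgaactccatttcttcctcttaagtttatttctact
Of the 39 symbols, 36 had an entry among 27457 promoters. The form CACGTG was found in these 3 of 36 and in 5.79% of all promoters. The letters TATAAA, searched like the others on both strands, stood in 1 of 36 (Dennd5b) and in 13.1% of all. The cAMP response element TGACGTCA stood in 0 of 36 and in 1.7% of all, and the full palindrome of the glucocorticoid response element in 0 of 36 and in 0.00364% of all. None of these motifs contains another. These matches describe letters in the window only.

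The increments were small. They ran from 0.13 to 0.35 log2 units (1.09-fold to 1.27-fold) with a median of 0.16, an excess of 11.9% over the highest other mean. Only 22 members exceeded 0.2 and 4 exceeded 0.3. The highest of the other 3 means was that of RS3 for 67 members, of C for 19 and of AS for 14. Within the allowed band the RS3 mean lay above the midpoint of C and AS for 84 members, with a median deviation of 0.046 log2 units, against 0.011 over all 8662 genes in the band. The name "only after 7 exposures" thus holds for the band that was set and not for an RS3 level equal to the controls. A positive increment was found for 1359 of the 8662 genes (15.7%).

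The limits of the rule cut through a gradual order. The last members, in places 99 and 100 (Spata2, an adaptor protein), had increments of 0.126 and 0.126, and the next genes outside 0.125 and 0.125. At the edge of the band, the member nearest to it deviated by 0.0982 and the nearest genes beyond by 0.1002 and 0.1003, although the increments of those genes were 0.236 and 0.208. At the limit of the level, the lowest member had a mean of 5.01 CPM, and the genes just outside had 5.00 and 4.94. In all, 190 genes had an increment as large as a member's and were left out for their RS3 mean alone, 184 of them because RS3 was already above the band.

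**Figure D1:**
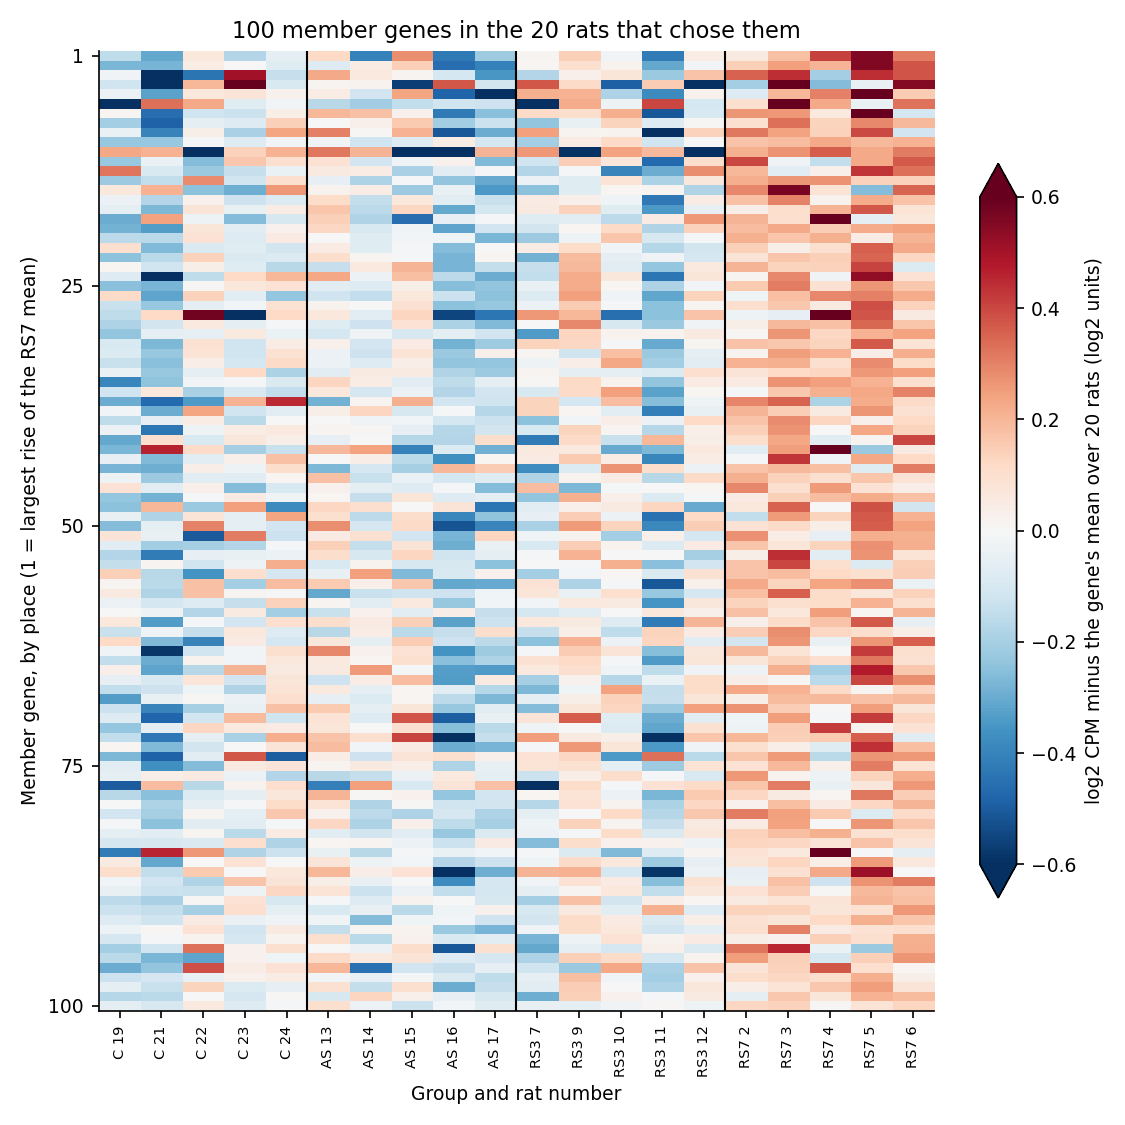
Heat map of the 100 members (rows, place 1 at the top) in the 20 rats that chose them (columns, by group). Colour gives the log2 CPM minus the gene's mean over the 20 rats, red above and blue below, with the scale ending at 0.6. RS7 columns are mostly red, rat 5 most of all, while AS rats 16 and 17, C rat 21 and RS3 rat 11 are the bluest of their groups.

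Single rats varied by as much as the increments. The median coefficient of variation of the members between rats was 10.3% in C, 9.3% in AS, 10.9% in RS3 and 8.36% in RS7. The increment exceeded the SD of the RS7 rats for 64 members and the SD of every group for 42. All 5 RS7 rats lay above all 15 other rats for 3 members, against 5 of the 12415 genes with a mean of at least 5 CPM (0.0403%), a count that the rule itself favours. At most 1 of the 15 other rats lay above the lowest RS7 rat for 8 members, and the median over the 100 was 5.5 rats and the highest 13. The highest of the 20 values was an RS7 rat's for 91 members, and rat 5 alone held it for 44, rat 3 for 20, rat 6 for 11, rat 4 for 9 and rat 2 for 7. The rule favours these counts too. No share over all genes stands beside them, so nothing is read from them. The mean levels of the members ran from 5.01 to 413 CPM with a median of 29.8, against 33.6 over the 8662 genes. The 15 members under 10 CPM all lacked a symbol.

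The members that separated RS7 from all other rats were Hdac9, Cachd1 and Rasal2. Hdac9 codes for a class IIa histone deacetylase that binds MEF2 factors. Its CPM values were 20.9, 21.0, 24.2, 25.3 and 26.2 in C, 18.5, 19.1, 24.1, 26.2 and 28.0 in AS, 20.5, 25.1, 25.6, 25.7 and 27.1 in RS3, and 28.0, 29.3, 30.1, 33.0 and 37.3 in RS7. Means were 23.5 ± 2.46, 23.2 ± 4.22, 24.8 ± 2.53 and 31.5 ± 3.70 CPM (SD, n = 5 each), an increment of 0.35 log2 units. The groups did not overlap, but the lowest RS7 rat (28.05 CPM) and the highest AS rat (27.99 CPM) nearly met.

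Cachd1 encodes a membrane protein related to the auxiliary subunits of voltage-gated calcium channels. The RS7 rats lay close together, at 62.6, 63.2, 63.6, 64.3 and 64.9 CPM (mean 63.7 ± 0.914, SD, n = 5). The other rats covered 47.4 to 55.0 CPM in C, 51.1 to 57.3 in AS and 48.2 to 60.3 in RS3, with means of 51.5 ± 3.81, 53.5 ± 2.54 and 54.5 ± 4.85. Its increment was 0.22 log2 units, and the gap between RS7 and all other rats was the widest of the 3 genes, from 60.3 to 62.6 CPM.

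Rasal2 encodes a Ras GTPase-activating protein. Its RS7 rats had 39.2, 40.2, 41.3, 41.4 and 41.8 CPM (mean 40.8 ± 1.06, SD, n = 5), and the highest rats of the other groups had 37.2 in C, 38.6 in AS and 39.0 in RS3. Means there were 32.9 ± 4.12, 33.5 ± 3.68 and 35.4 ± 3.39 CPM. The increment was 0.20 log2 units, and the separation rested on 39.2 against 39.0 CPM.

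Among genes of chromatin and transcription, Tcf7l2, the effector of Wnt signalling that also marks the dorsal thalamus, had the largest increment of all members (0.35 log2 units). Its RS7 rats had 20.8, 22.7, 24.9, 26.7 and 29.5 CPM (mean 24.9 ± 3.39, SD, n = 5), and the C, AS and RS3 means were 18.5 ± 1.79, 18.7 ± 4.18 and 19.6 ± 2.71. AS rat 15 (24.3 CPM), AS rat 13 (21.8), RS3 rat 9 (22.1) and C rat 22 (21.0) overlapped with RS7. Mef2a, an activity-regulated transcription factor, had 175 ± 13.7 CPM in RS7 against means of 147, 144 and 154 in C, AS and RS3, and its RS7 mean drew on rat 5 at 199 CPM. Dpf1, a subunit of the neuronal BAF chromatin remodelling complex, had 26.9 ± 2.40 CPM in RS7, from 24.4 to 30.5, against means of 22.5 to 23.4 elsewhere. Phip, a bromodomain protein, and Rif1, which acts in replication timing and DNA repair, had RS7 means of 29.0 ± 3.52 and 21.2 ± 1.72 CPM. In both, C and not RS3 was the highest other group, at 26.0 ± 2.70 and 19.0 ± 1.69 CPM. Cdkn1a, the inhibitor of cyclin-dependent kinases, had 18.4 ± 1.61 CPM in RS7 and 16.1 ± 2.35 in RS3, and rats of C, AS and RS3, up to RS3 rat 9 at 19.0 CPM, lay within the RS7 range of 15.7 to 19.7.

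**Figure D2:**
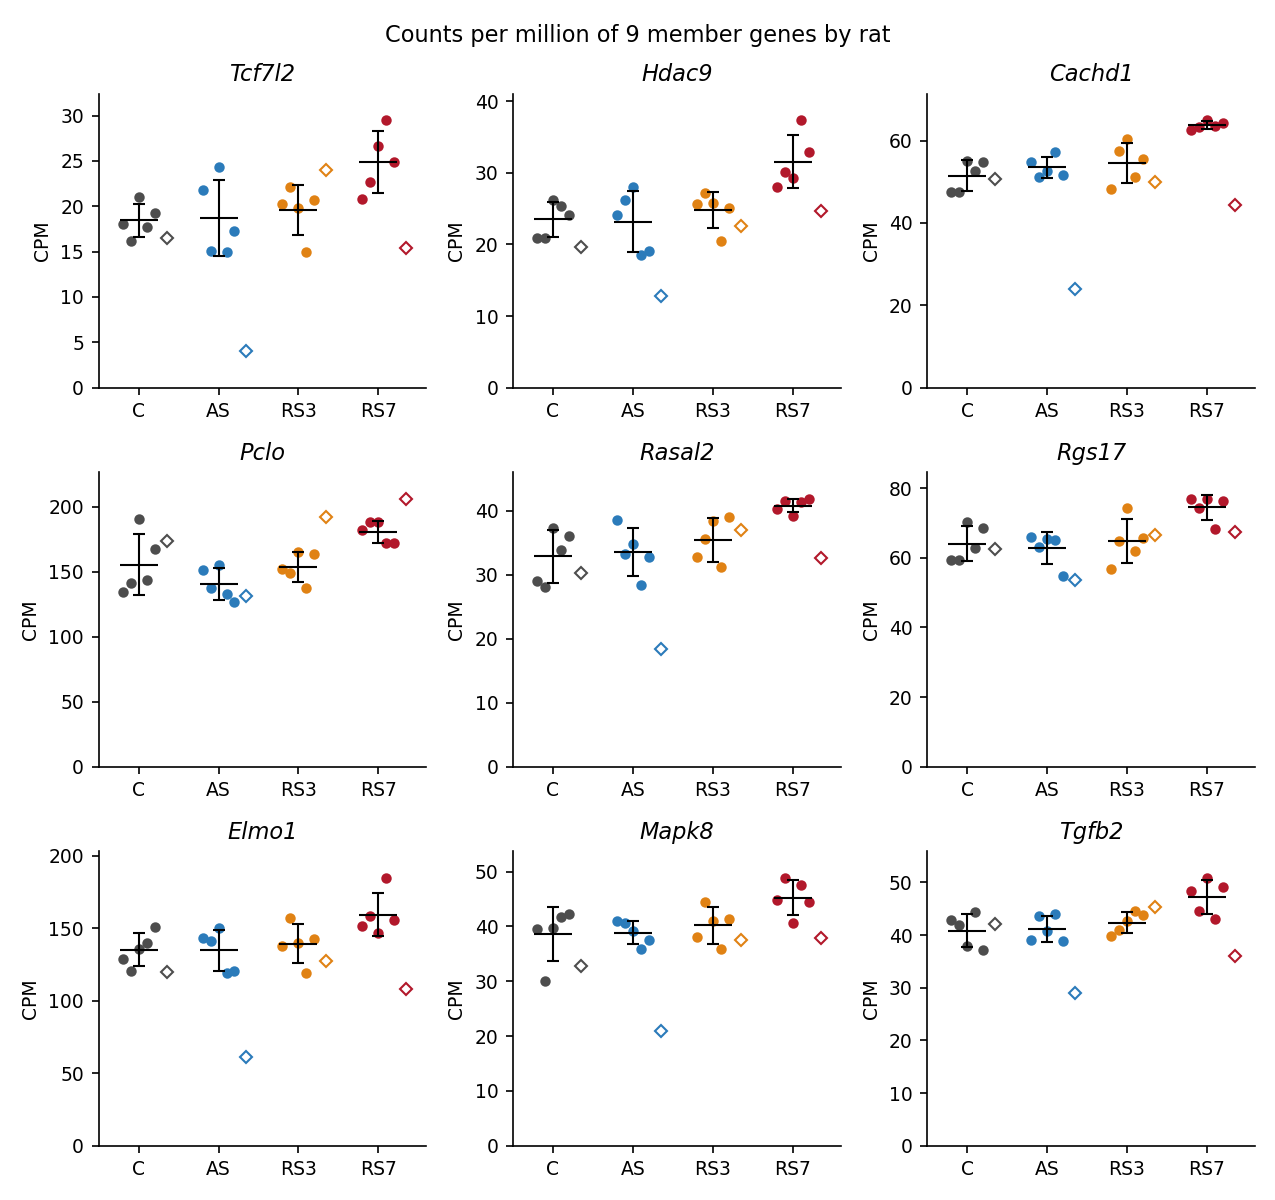
CPM of 9 named members by group. Filled points are the 5 rats per group that chose the genes, the bar and whiskers are their mean and SD, and open diamonds are the left-out rats. All RS7 points lie above all other filled points for Hdac9, Cachd1 and Rasal2 only, and the open RS7 diamond lies below the filled RS7 points for every gene shown but Pclo.

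Presynaptic genes were represented by Pclo and Sgip1. Pclo encodes Piccolo, a giant scaffold of the active zone. Its CPM values were 134, 141, 144, 168 and 190 in C, 127, 133, 137, 151 and 155 in AS, 137, 149, 152, 164 and 165 in RS3, and 172, 172, 182, 188 and 188 in RS7. Only C rat 22, at 190 CPM, reached the RS7 range, and that rat made C the highest of the other groups (155 ± 23.2 CPM against 180 ± 8.19 in RS7). Sgip1, an endocytic protein, had 65.4 ± 3.51 CPM in RS7 against 55.1 ± 5.57, 53.6 ± 4.55 and 57.7 ± 6.53, and RS3 rat 10 (67.7 CPM) exceeded 4 of the 5 RS7 rats.

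Postsynaptic scaffold and adhesion proteins were represented by Ppp1r9a, Anks1b, Pcdh9 and Cadm2. Ppp1r9a (neurabin), which anchors protein phosphatase to actin in dendritic spines, had 87.6 ± 3.14 CPM in RS7, from 84.5 to 91.8, and RS3 rat 10 at 85.6 was the one other rat within that range. Anks1b, a scaffold of the postsynaptic density, had 136 ± 6.13 CPM in RS7 and 125 ± 12.0 in RS3, and RS3 rat 9 at 142 CPM stood above 4 RS7 rats. For the adhesion proteins Pcdh9 and Cadm2, RS7 means were 139 ± 9.81 and 71.0 ± 3.31 CPM against RS3 means of 123 ± 14.4 and 64.2 ± 4.84. Cadm2 was even in 4 RS7 rats (71.8 to 72.8 CPM) and lower in rat 2 (65.1 CPM).

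Several members code for signalling enzymes or their regulators. Mapk8, the c-Jun N-terminal kinase gene, had 40.6, 44.5, 44.8, 47.6 and 48.8 CPM in RS7 (mean 45.3 ± 3.18, SD, n = 5) against 38.6 ± 4.96, 38.9 ± 2.13 and 40.2 ± 3.30 in C, AS and RS3. RS7 rat 4 lay inside the range of each other group, and C rat 21 (30.0 CPM) lay far below the rest of C. Pdpk1, a kinase of growth factor signalling, had 54.4 ± 3.50 CPM in RS7 and 48.2 ± 4.36 in RS3. The tyrosine kinase gene Fer had 21.4 ± 1.32 CPM in RS7 against 18.6 to 19.2 in the other means. Rgs17, which shortens G protein signals, had 74.5 ± 3.63 CPM in RS7 and 62.9 to 64.8 in the other means. Its other 4 RS7 rats had 74.4 to 76.8 CPM while rat 5 had 68.3, so that the rat that was highest for 44 members was the lowest here. RS3 rat 10 (74.4 CPM) and C rats 22 (70.3 CPM) and 24 (68.6 CPM) lay within the RS7 range.

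Small GTPase and trafficking genes and a ubiquitin ligase gene were also among the members. Elmo1, which activates Rac with DOCK proteins, had 159 ± 14.8 CPM in RS7 against 135 ± 11.3, 135 ± 14.2 and 139 ± 13.5. Its RS7 rats were at 147, 151, 156, 158 and 184 CPM, and the other groups reached 151, 150 and 157, so rat 5 alone stood well apart. Dennd5b, a Rab exchange factor, had 49.98 ± 2.67 CPM in RS7, from 46.9 to 52.9, a range that other rats also reached, among them C rat 24 (49.7) and RS3 rat 12 (50.2). Trim9, a brain ubiquitin ligase, had 136 ± 8.42 CPM in RS7 and 121 to 124 in the other means.

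The secreted ligands among the members were Tgfb2, of the TGF-beta family, and Nrg3, a neuregulin that binds ErbB4. Tgfb2 had 43.1, 44.6, 48.3, 49.2 and 50.8 CPM in RS7 (mean 47.2 ± 3.24, SD, n = 5), against 40.8 ± 3.17, 41.2 ± 2.46 and 42.3 ± 2.01. Rat 5 was again the lowest RS7 rat, and C rat 23, AS rats 14 and 16 and RS3 rats 11 and 12 lay above it. Nrg3 had 23.5 ± 1.83 CPM in RS7 and 20.8 ± 3.02 in RS3, where rat 10 (24.6 CPM) exceeded 4 RS7 rats. The sodium-calcium exchanger gene Slc24a3 had 138 ± 5.05 CPM in RS7 and 119 to 123 in the other means, and AS rat 13 (141 CPM) and RS3 rat 12 (135 CPM) lay within the RS7 range. Palm2, of the paralemmin family, had a mean of 21.6 CPM in RS7, from 19.9 to 23.5, and Clmn, a calponin-like membrane protein, 145 ± 8.90 CPM, with increments of 0.23 and 0.19 log2 units. The other named members by the rule, Btbd8, Agfg1 and RGD1561481, had increments of 0.19, 0.18 and 0.18 log2 units. A further 7 with a symbol fell outside the naming rule and are given for completeness. Cep350, Strbp, Mmp15, Fgf12, Pcsk6, Nufip2 and Sh3bp4 had increments of 0.127 to 0.138 log2 units.

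Gene groups listed for neurons held few members, and their symbols come from genes the study called in these rats, so the counts that follow are not independent of its calls. Of 28 chromatin, transcription and RNA genes with an identifier, 3 were members (Hdac9, Mef2a, Phip) and 18 were higher in the AS versus RS7 comparison (edgeR quasi-likelihood test, adjusted p under 0.05), where 1.19% of all 16202 tested genes were higher. Of 25 kinases, phosphatases and second messenger enzymes 2 were members and 14 were higher. Of 23 adhesion genes 2 were members and 10 were higher, and of 19 presynaptic genes 2 and 8. Of 16 ubiquitin ligases and proteases 1 was a member and 9 were higher, of 15 small GTPase and trafficking genes 3 and 8, and of 9 postsynaptic scaffold genes 2 and 2, with 1 lower. No member was among 23 ion channel, 12 transmitter receptor or 21 cytoskeletal genes, of which 7, 7 and 4 were higher and 2 ion channel genes lower. In C versus RS7 between 0 and 2 genes of each group were higher and none lower, and none of them was called in RS3 versus RS7 or C versus AS.

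Counting calls over all 16202 tested genes gave the background for the members, all 100 of which were tested. In AS versus RS7, 21 members were higher in RS7 at an edgeR adjusted p under 0.05, against 1.19% of all genes, and all 21 had a symbol. In C versus RS7 no member was called, against 0.111% of all genes, although 58 had an unadjusted p under 0.05 (8.83% of all genes, higher in RS7). DESeq2 called 9 members and limma-voom 2, against 1.81% and 0.401% of all genes called higher by these tools. In RS3 versus RS7 no member was called by edgeR, DESeq2 or limma-voom, against 0% of all genes, and the unadjusted p was under 0.05 for 70 (3.69% of all genes, higher in RS7). The rule used these comparisons, so nothing is read from the counts. The median log2 differences of the members were 0.21, 0.28 and 0.22 for C, AS and RS3 versus RS7, against medians of -0.01, -0.01 and 0.00 over all genes, with the 3 comparisons sharing the RS7 rats. The 21 calls depended on which rats were used, as did the calls over all genes (192 higher and 78 lower in RS7). Leaving out rat 14, 16 or 17 of the AS group left 1, 4 and 2 member calls. Over all genes 52, 92 and 46 calls in either direction were left. Leaving out rat 3, 4, 5 or 6 of the RS7 group left 4, 13, 7 and 6 member calls. Over all genes 81, 267, 97 and 83 were left. Calls over all genes thus fell along with those of the members, though little without rat 4. Leaving out RS3 rat 11 gave 31 member calls and 337 over all genes.

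The rule placed no limit on the difference between C and AS, but both entered the midpoint. The higher of them could also set the increment, so the choice favours genes in which they were close. The C versus AS values are therefore descriptions as well. No member was called in C versus AS by edgeR, DESeq2 or limma-voom (0% of all genes), and 4 had an unadjusted p under 0.05, against 10% of all genes in either direction. In that fit 18 members were higher and 82 lower in AS, with a median of -0.07 log2 units against 0.00 over all genes. The size of this difference depended on scaling. On CPM by library total 52 of the 100 AS means lay below C, with a median of -0.0025 log2 units against 0.066 over all genes with a mean of at least 5 CPM, and on TMM-scaled CPM 84 did, with a median of -0.069 against -0.0012. In C versus RS3 and AS versus RS3, which the band confined, no member was called by edgeR, DESeq2 or limma-voom (0% of all genes in each by edgeR), with 0 and 1 at an unadjusted p under 0.05, against 16.3% and 4.61% of all genes.

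The log2 CPM of each of the 100 members was centred on its mean over the C, AS and RS3 rats. The mean over members gave a member level for each rat. It was -0.13, -0.06, 0.03, 0.03 and 0.07 log2 units in C, -0.14, -0.08, 0.01, 0.05 and 0.09 in AS, -0.11, -0.02, 0.06, 0.07 and 0.12 in RS3, and 0.17, 0.17, 0.21, 0.26 and 0.28 in RS7. The RS7 rats did not overlap with the rest, as the choice favours, and the gap between the lowest RS7 rat (rat 4) and the highest other (RS3 rat 9) was 0.0460. With TMM scaling, which corrects for libraries dominated by a few genes, the gap was 0.00404, with RS7 rat 2 lowest and C rat 22 highest of the others. All genes with a mean of at least 5 CPM lay 0.033 log2 units lower in RS7 than in the mean of the other groups on CPM, and 0.0017 higher with TMM. The median increment of the members was 0.20 log2 units with TMM, and all 100 increments stayed positive with either scaling.

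Markers of the dorsal thalamus, which lies above the hypothalamus, moved with the member level. Of 12 listed, 9 had an identifier, none was at 0, and Tcf7l2 was itself a member. Identifiers came only from genes the study had called between these groups. The sums of every marker list, and the covariate built from thalamic markers, are therefore not independent of its calls. The summed CPM of the other 8 was 1242 to 1797 in C, 1419 to 1917 in AS, 1449 to 2140 in RS3 and 1845 to 2457 in RS7. In 3 of 4 groups the rat with the lowest sum also had the lowest member level (C rat 21, RS3 rat 11, RS7 rat 4), and in 3 the rat with the highest sum had the highest (AS rat 13, RS3 rat 9, RS7 rat 5). Of the 9, 2 were higher in AS versus RS7 by edgeR, where 1.19% of all genes were higher, and none was called in C or RS3 versus RS7. With the marker level as a covariate, added after seeing the data, the members' median log2 differences were 0.06 in C versus RS7, 0.11 in AS versus RS7 and 0.15 in RS3 versus RS7, and no member was called in any of them, nor any of the 16202 genes. In the same fit the medians were -0.10 in C versus RS3 and -0.04 in AS versus RS3, against -0.01 and 0.05 without the covariate. Markers of the neurosecretory and other hypothalamic neurons, of which 11 of 15 had an identifier and none was at 0, moved the other way, with sums of 152 to 499 CPM in C, 205 to 539 in AS, 113 to 327 in RS3 and 99.1 to 163 in RS7. Markers of GABAergic neurons had 610 to 1017, 723 to 1041, 497 to 701 and 483 to 661 CPM, and 3 astrocyte markers 1891 to 2133, 1783 to 2003, 1779 to 1955 and 1712 to 1934. The 1 endothelial marker with an identifier had 7.22 to 10.5, 6.58 to 8.73, 7.71 to 13.2 and 9.13 to 13.0 CPM. In AS versus RS7 this marker and 1 of the 3 astrocyte markers were also called higher. In the same comparison 1 of 11 hypothalamic and 1 of 6 GABAergic markers were called lower. The part of these cell types in the members' levels was not tested. The fit with the covariate is no such test. The thalamic sums of all C rats lay below those of all RS7 rats, so marker level and group cannot be told apart there. Oligodendrocytes, microglia and ependyma had no marker with an identifier and so were not analysed here.

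**Figure D3:**
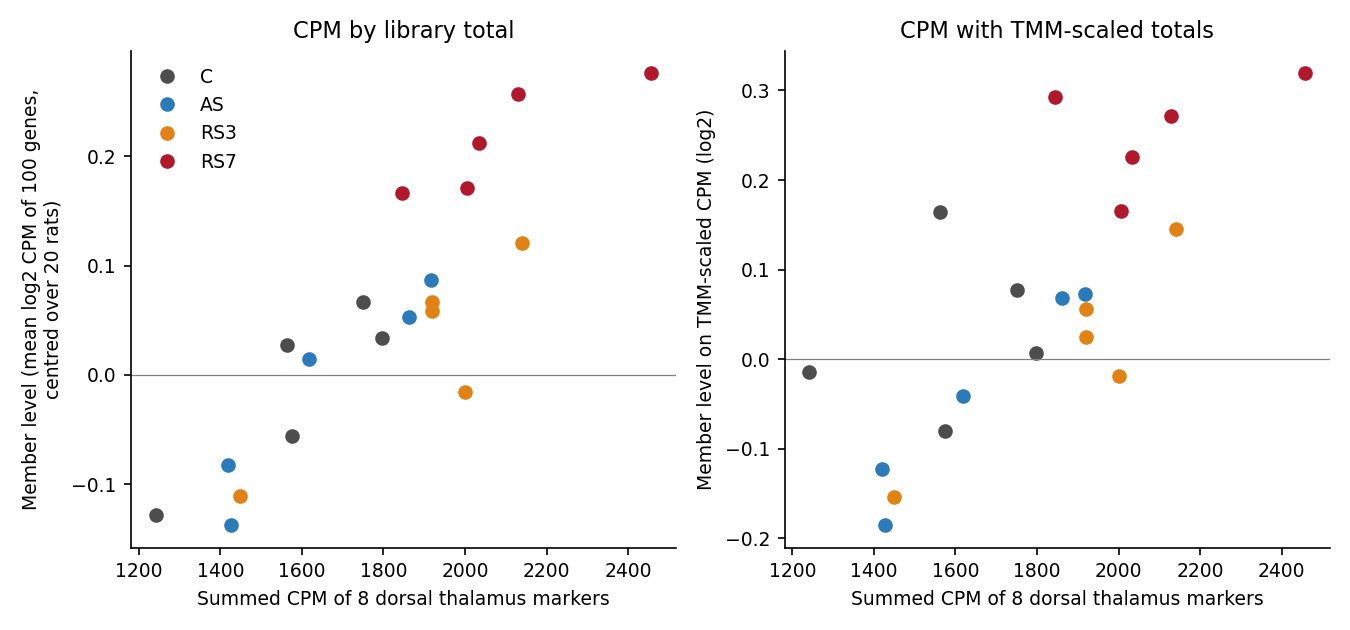
Member level of each of the 20 rats (y axis, log2 units) against the summed CPM of 8 dorsal thalamus markers (x axis), with CPM by library total on the left and TMM-scaled CPM on the right. Colours give the group. Levels were centred on the C, AS and RS3 rats, although the left axis label names 20 rats. On the left the RS7 rats (1845 to 2457 CPM) lie at the upper right and above every other rat in member level, and RS3 rat 9 (2140 CPM) is the highest other rat.

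The choice was repeated with each RS7 rat held out in turn, so that the held-out rat had no part in choosing the 100 genes. C, AS and RS3 rats still took part, so the lists favour genes whose means in these groups were low, which raises the values below. The values over all genes carry no such choice. The 5 lists share genes with each other and 69 to 83 genes with the members, so the 5 values are not independent. The held-out rat lay above the highest other group mean for 71 of 100 genes in rat 2, 89 in rat 3, 51 in rat 4, 66 in rat 5 and 78 in rat 6. The median log2 differences were 0.070, 0.144, 0.016, 0.080 and 0.101, below the increments that the same lists had in the rats that chose them (medians 0.155 to 0.191). Over all genes with a mean of at least 5 CPM the same rats lay above in 31.2%, 26.7%, 16.2%, 25.5% and 30.8%, with medians of -0.051, -0.077, -0.187, -0.103 and -0.068, since the highest of 3 means is a high bar. Rat 4, with the largest share of counts in few genes among RS7, was the one closest to the bar.

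**Figure D4:**
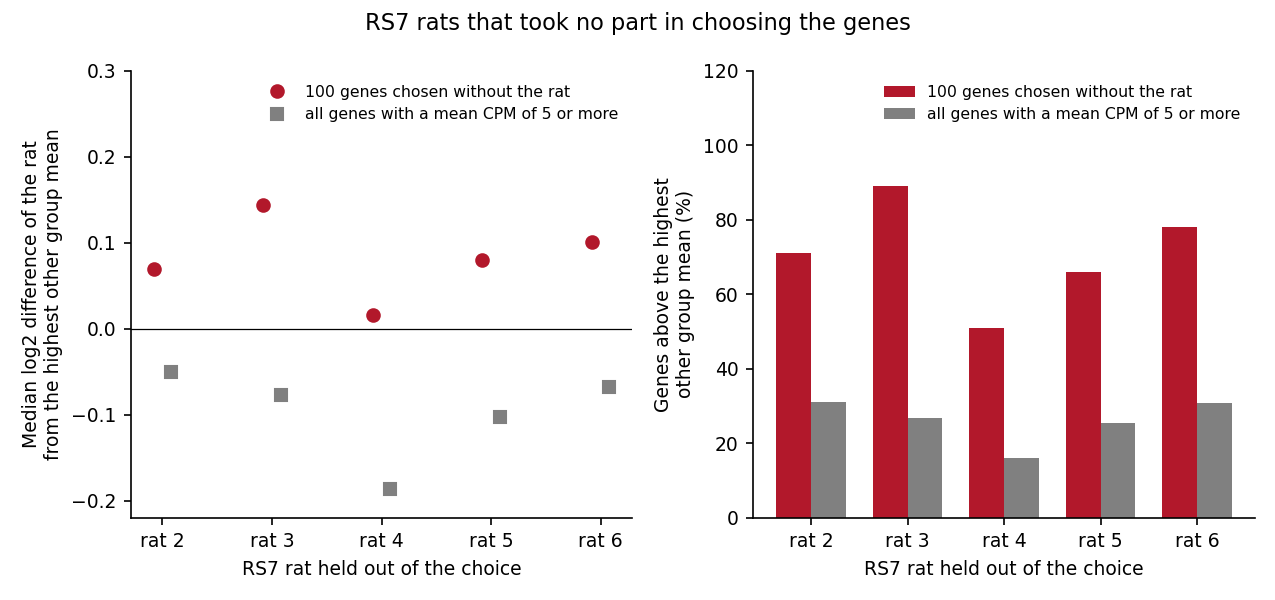
Each RS7 rat compared with the highest of the C, AS and RS3 means, for 100 genes chosen without that rat (red) and for all genes with a mean of at least 5 CPM (grey). The left panel gives the median log2 difference and the right panel the percentage of genes above. The red values are positive in all 5 rats, from 0.016 in rat 4 to 0.144 in rat 3, and the grey medians are negative. The C, AS and RS3 means took part in choosing the red genes, which raises the red values.

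The 4 rats left out of the choice gave 1 further rat per group, with no spread and no test. The 10 most abundant genes took 24.9% to 46.3% of their counts, against 12.4% to 20.3% in the 20 rats used. The paper excluded 4 libraries of low quality, 1 per group, for few reads or for adapter sequence and high GC content, without numbering them. Values of these 4 rats are therefore not on a par with those of the 20. RS7 rat 1 had the highest CPM of the 4 for 38 of the 100 members, against 7.42% of all genes, and RS3 rat 8 for 39, C rat 20 for 19 and AS rat 18 for 4. With TMM scaling RS7 rat 1 was highest for 54 members, against 18.3% of all genes, AS rat 18 for 24, RS3 rat 8 for 16 and C rat 20 for 6. Shares over all genes were counted for RS7 rat 1 only, so the counts of rats 8, 18 and 20 have no background. The member levels of these rats were -0.11 (C), -0.73 (AS), 0.02 (RS3) and -0.03 (RS7) log2 units on CPM, and 0.14, 0.22, 0.29 and 0.51 with TMM. On CPM, then, the left-out RS7 rat did not stand above the left-out RS3 rat, and with TMM it did. Cachd1 was one of the members that did not follow, at 44.5 CPM in RS7 rat 1 against 50.6 in C rat 20 and 49.97 in RS3 rat 8, whereas Pclo had 206 CPM against 173, 131 and 192 in the C, AS and RS3 rats.

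Membership depended on which rats were used. The same rule with 1 rat removed kept between 44 and 87 of the 100. It kept the fewest when rat 9 (44), 11 (54) or 7 (58) of RS3, or rat 21 of C (64), was removed. With all 24 rats 44 members were kept. In each of the 20 repeats, and under both other scalings, 12 members were kept, and 8 of them have a symbol, namely Palm2, Cachd1, Pclo, Rgs17, Dpf1, Elmo1, Mapk8 and Slc24a3. Tcf7l2 and Hdac9, the members with the largest increments, were kept in 16 and 15 of the 20 repeats. Increments of single genes also moved with the rats. With all 24 rats 5 named members had an increment more than 1.5 times smaller, namely Tcf7l2 (0.20 log2 units), Cdkn1a (0.10), Pcdh9 (0.12), Tgfb2 (0.08) and Spata2 (0.07). Removing 1 rat did the same for 7. Without RS3 rat 11 the increments were 0.12 for Cdkn1a, 0.12 for Mef2a, 0.11 for Nrg3, 0.09 for Trim9 and 0.08 for Anks1b. They were 0.11 for Pcdh9 without RS3 rat 7, 0.09 for Phip without RS7 rat 3 and 0.08 for Trim9 without C rat 21.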

How the data were processed

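The authors trimmed the reads, mapped them to the rat genome build rn6 with HISAT2 2.0.5 and counted them per Ensembl gene with featureCounts. The table deposited for all 24 rats holds raw counts, and the strand setting and the handling of multi-mapping reads were not given in the sources used here, so overlapping or near-identical genes could share reads. CPM were computed here from each library total. The members and lists were chosen with earlier results of these data known. Rats 1, 8, 18 and 20 were left out by the rule. Genes with counts passing filterByExpr (minimum count 10, 16202 genes) were tested in R 4.3.3 with the edgeR 4.0.16 robust quasi-likelihood test over 4 groups without covariates, with Benjamini-Hochberg adjustment at 0.05. The rule and the fits were tested on simulated data beforehand, and the other steps were not. Named genes were members with a symbol among the first 25 in order, on a gene list or at a limit of the rule. Of these, 1 is not reported here. Symbols came from 779 identifiers in the gene lists of the study, whose statistics columns were not used, and the RefSeq table matched 0 identifiers. A check of gene length or GC content over the members was void, since under 80% had a value. Each rat was 1 animal and 1 library. Alternatives were DESeq2 1.42.0, limma-voom (limma 3.58.1), other scalings, filters, bands and levels, all 24 rats, only the groups compared and leaving out each rat. Fits with a covariate (thalamic markers, or the share of the top 10 genes) and fits lacking rats 21 and 22 of C and 4 of RS7 were added after seeing the data.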

Additional observations from a re-analysis of the deposited data

Results flagged for a closer look

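Of 132 sets of 5 rats (32 named members and the member level, in each of 4 groups), 8 held a rat that stood apart from the other 4 by Dixon's criterion, which chance meets in about 1 of 20 sets. In C these were rat 21 for Mapk8, at 30.0 CPM, and for Trim9, at 101.1 CPM, both below the other C rats. In AS they were rat 17 for Rgs17, lower at 54.8 CPM, and rat 13 for Slc24a3, higher at 141.2 CPM. In RS3 rat 7 was lower for Pcdh9, at 97.7 CPM. In RS7 rat 5 was lower for Rgs17, at 68.3 CPM, and higher for Mef2a, at 198.7 CPM, and rat 2 was lower for Cadm2, at 65.1 CPM.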

How the results depend on the processing

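No paired analysis was possible because the rat numbers are not shared between groups. Calls among the members in C versus RS7, 0 in the edgeR test over 4 groups, became 9 with DESeq2, 2 with limma-voom, 1 with DESeq2 size factors, 2 without a filter on low counts and 1 with the share of the 10 most abundant genes as a covariate, and ranged from 0 to 4 without single rats. Over all genes these 5 settings called 2.60%, 0.64%, 0.19%, 0.25% and 0.07% in either direction, against 18 genes higher and 6 lower in the edgeR test. Member calls in AS versus RS7, 21, became 37 with DESeq2, 43 with limma-voom, 9 with all 24 rats, 36 with only the 2 groups compared and 0 with the thalamic covariate, and ranged from 1 to 31 without single rats. Over all genes these 5 settings called 3.51%, 4.76%, 0.80%, 2.73% and 0%, against 192 genes higher and 78 lower. Member calls in the other 4 comparisons stayed at 0 without any single rat. Of the 100 members, 49 were kept with RS3 within 0.05, 44 within 0.2, 44 with all 24 rats, 48 with all 24 rats and TMM, 43 without C rats 21 and 22 and RS7 rat 4, and 44 to 87 without single rats. The median over the 5 held-out RS7 rats was 0.080 log2 units and became 0.133 with TMM. In all, 35 recomputed values of these results moved and 176 did not, and of the increments of named members 10 (of Cachd1 and Rasal2, whose RS7 rats varied least) moved by more than the SD of the gene's RS7 rats and 726 did not, although 5 shifted by over 1.5 times with all 24 rats and 7 without a single rat. None of the recomputed values counted here changed sign. Other values did reverse. The members' median log2 difference in AS versus RS3 went from 0.05 to -0.04 with the thalamic covariate. In C versus RS3 the median went from -0.009 to 0.014 with limma-voom. The left-out RS7 rat stood above the left-out RS3 rat in member level with TMM but not on CPM. With 5 rats per group and increments near the spread between rats, the order of genes near the last place is not resolved.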
